A study of Homo sapiens with 9 samples.

Results

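TAGLN and 9 further genes of the smooth muscle contractile programme were followed in the polysome-associated RNA of breast cancer xenografts. The 10 genes (TAGLN, ACTA2, ACTG2, CNN1, CNN2, MYL9, TPM1, TPM2, CALD1 and SRF) were taken by their symbols from count tables of 21619 genes, and all 10 were present. The tumours grew from MDA-MB-231, an established human cell line of triple-negative breast cancer whose ribosomes are tagged with an EGFP-L10a fusion, injected orthotopically into the mammary fat pad of mice. In 5 tumours (M1, M6, M7, M10 and M15) the cancer cells were injected with human bone marrow derived mesenchymal stem cells (MSC) at a 1:1 ratio, and in 4 tumours (A9, A11, A12 and A13) they were injected alone. Both groups carried the same tagged line and were taken after 3 weeks, each tumour from a different mouse. The strain and age of the mice were not given in the labels. Polysomes were pulled down from lysates of whole tumours with beads against the tag (translating ribosome affinity purification), so RNA on tagged ribosomes is enriched, and RNA of untagged MSC and mouse cells can be carried along. No library of total RNA was used here, and RNA abundance and ribosome association cannot be told apart. In whole tumours, fewer cells of a type and less RNA per cell cannot be told apart either.

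Smooth muscle cells contract when myosin pulls on actin filaments, and myosin is switched on by phosphorylation of its regulatory light chain. Calponins, caldesmon, tropomyosins and transgelin bind the actin filament and tune or stabilise it. Many of these genes carry CArG boxes, the short A/T-rich elements bound by serum response factor (SRF), which works with myocardin in smooth muscle and with the actin-sensing myocardin-related factors in many other cells. In fibroblasts and in cancer cells with mesenchymal features, members of the same set are expressed as parts of stress fibres, and they serve as markers of myofibroblasts and of TGF-beta exposure.

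The members differed in whether a CArG box stands next to their start. Windows of 250 bases before to 50 bases after the start were taken from RefSeq (GRCh38.p14), where 8 of the 10 members matched by symbol, with 14 windows in all because some genes have several starts. TAGLN and MYL9 were not in this set. A full CArG box (10 letters, both strands) occurred in 3 of the 14 windows, those of ACTG2, CNN2 and SRF, against 1.29% of all 35116 windows. A near match with a single G or C in the A/T core occurred in 2 of the 14, one start each of ACTA2 and CALD1, against 6.94% of all windows. The motif CATTCC, or GGAATG on the other strand, was in 3 of the 14 windows against 14% of all, and in the member windows no such match overlapped a CArG box or near match. The last 130 bases before the start are shown for the 4 members below because they include the pair of smooth muscle actins, which behaved differently in the tumours, and the members whose boxes are complete. Capitals mark the full or near CArG matches, and each sequence ends at the base before the start.
ACTG2 (chr2:73892878-73893007, plus strand): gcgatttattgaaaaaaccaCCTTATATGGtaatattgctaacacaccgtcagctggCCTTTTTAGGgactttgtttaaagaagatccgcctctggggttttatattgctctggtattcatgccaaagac
ACTA2 (chr10:88952774-88952903, minus strand): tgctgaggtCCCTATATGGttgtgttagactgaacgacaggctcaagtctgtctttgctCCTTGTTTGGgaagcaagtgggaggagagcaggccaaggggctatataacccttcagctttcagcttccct
CNN2 (chr19:1026478-1026607, plus strand): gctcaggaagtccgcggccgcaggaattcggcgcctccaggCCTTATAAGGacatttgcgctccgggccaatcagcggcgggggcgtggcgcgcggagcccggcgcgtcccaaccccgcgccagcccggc
SRF (chr6:43171139-43171268, plus strand): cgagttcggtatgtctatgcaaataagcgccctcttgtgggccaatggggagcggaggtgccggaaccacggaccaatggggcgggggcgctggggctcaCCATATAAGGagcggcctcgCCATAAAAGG
ACTG2 had 2 full boxes, at -110 to -101 and -73 to -64 from the start, and SRF had 2, at -30 to -21 and -10 to -1. ACTA2 had 2 near matches, at -121 to -112 and -71 to -62. These are matches of letters and say nothing of whether a factor was bound in these tumours.

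Gene counts per library were 29749909 to 50639082 with MSC and 24616792 to 65275226 without. Levels are in CPM, counts scaled to a common TMM library size. Among genes listed as high in the line, vimentin (VIM) stood at 8976 ± 2114 CPM (SD, n = 5) with MSC and 7380 ± 589.3 CPM (n = 4) without. CD44 (497.1 against 326.5 CPM) and AXL (458.3 against 318.3 CPM) passed the threshold below upward, and VIM, MSN and CAV1 did not. Of genes listed as low in the line, ESR1, PGR and CDH1 averaged at most 0.053 CPM in either group. ERBB2 and GATA3, listed as low too, averaged 28.0 and 4.40 CPM with MSC and 22.6 and 6.77 CPM without. Of 13458 genes tested between the groups, 563 passed the threshold upward and 484 downward (adjusted p under 0.05 in the quasi-likelihood test of edgeR, adjusted after Benjamini and Hochberg), which is 7.78% of tested genes, 4.18% higher and 3.60% lower. With a correction for GC content and transcript length added after seeing the data, the split was 337 higher and 486 lower. Tumour M15 stood apart for 6 fibroblast-defining markers (COL1A1, COL1A2, COL3A1, DCN, LUM and POSTN), summing to 107.6 CPM against 13.8 to 29.1 in the other tumours with MSC and 9.84 to 17.3 without.

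TAGLN rose most among the members and the others did not follow it as a set. Of the 10 genes, 9 passed the filter on low counts, and 2 of these were called higher (TAGLN and MYL9) and 1 lower (ACTG2), beside 4.18% and 3.60% of all tested genes. The same 3 genes had groups that did not overlap, 2 higher beside 5.13% of all tested genes and 1 lower beside 4.87%. The 10 genes were chosen by results of this same comparison of tumours with and without MSC, so their values are a description and the counts support nothing on their own. The median log2 change of the 9 members was 0.14, against 0.01 over all tested genes, and 7 of the 9 changes were positive, as were 51.1% of all. Changes below are log2 fold changes, with MSC minus without, ± SE of the fit.

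**Figure D1:**
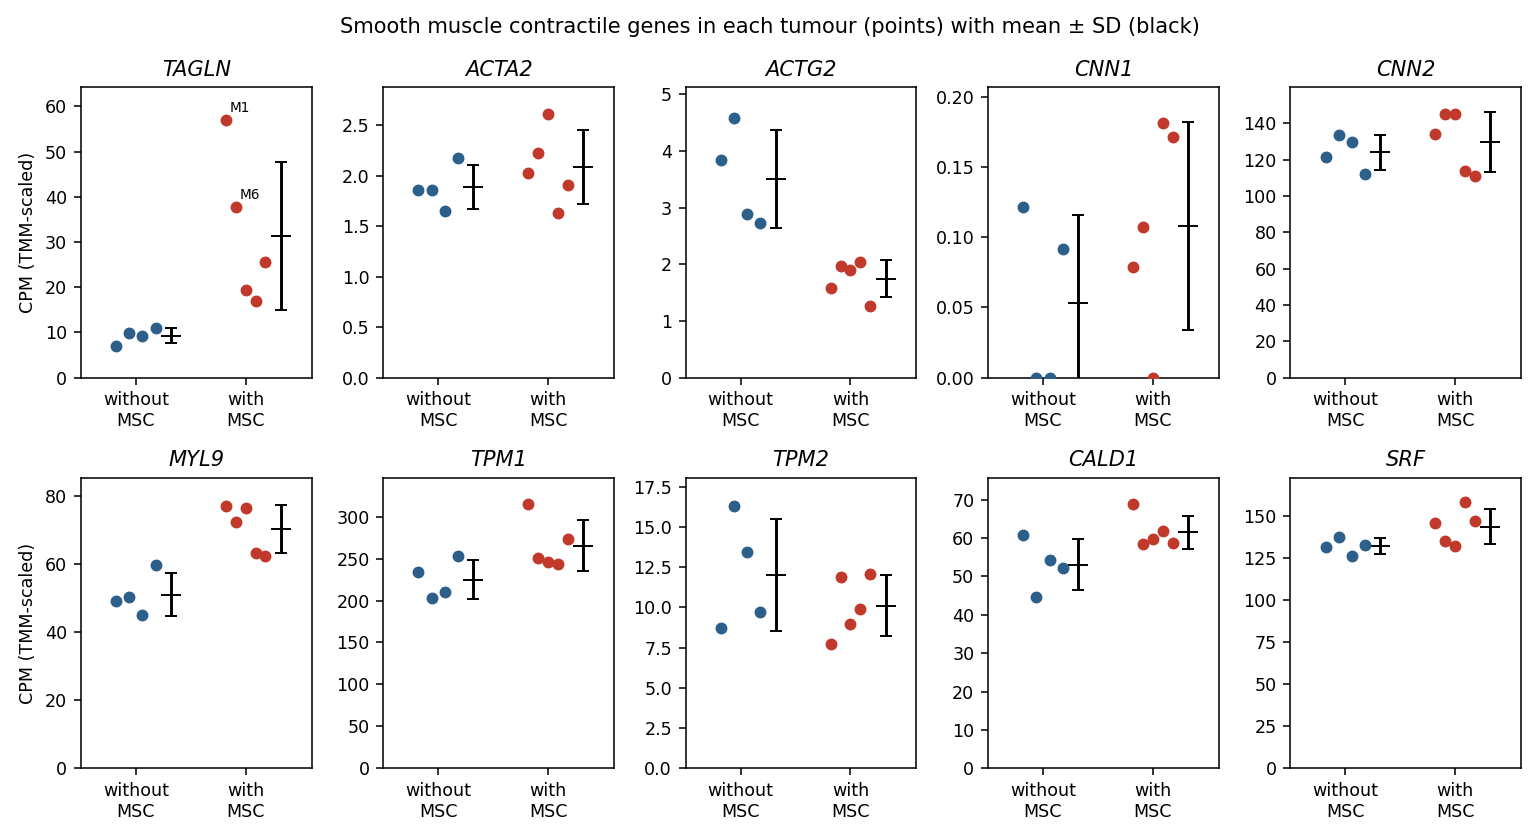
CPM (TMM-scaled, y axes from 0) of the 10 genes in each tumour, 4 without MSC (blue) and 5 with MSC (red), with mean ± SD in black (the CNN1 bar without MSC is cut off at 0). TAGLN is 16.9 to 57.0 CPM with MSC and 7.04 to 10.97 without, ACTG2 lies lower with MSC, and ACTA2, CNN2, TPM2 and SRF overlap between the groups.

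The actin-binding proteins come first. TAGLN, which encodes transgelin or SM22, an actin cross-linking protein of the calponin family, was 57.0 CPM in M1, 37.8 in M6, 25.7 in M15, 19.3 in M7 and 16.9 in M10. Without MSC it was 7.04 CPM in A9, 9.84 in A11, 9.26 in A12 and 10.97 in A13. All 5 tumours with MSC lay above all 4 without, and M1 and M6 were the highest of the 9. The mean went from 9.28 ± 1.65 CPM (SD, n = 4) without MSC to 31.3 ± 16.5 CPM (n = 5) with MSC, a change of 1.76 ± 0.35. The SD was 52.5% of the mean with MSC and 17.8% without, the widest spread with MSC among the 9 members that passed the filter.

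Without tumours M1 and M6 the change of TAGLN was 1.147, a fold of 2.21 in place of 3.38, and it was still called. The remaining 3 tumours with MSC, at 16.9 to 25.7 CPM, also lay above the 4 without. Leaving out M1 alone gave 1.43 and leaving out M15 gave 1.82. The call was lost without A9 (1.64), without A11 (1.79) or without A12 (1.75), and in limma-voom with quality weights (1.57). PCSK7, a proprotein convertase gene whose exons overlap 18.4% of the TAGLN exon bases in GENCODE 29 (GRCh38), was 22.5 ± 3.49 CPM with MSC (19.8 to 28.5) and 19.97 ± 3.83 CPM without (14.6 to 22.9) and was not called.

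CNN1, basic calponin and a marker of differentiated smooth muscle, had 0 to 9 counts per library, with 0 in M7, A11 and A12, where a level of up to 0.069, 0.098 and 0.12 CPM (3 counts per library) would go unseen. It was the member that did not pass the filter, and no fold is given for it. CNN2, the calponin found in many non-muscle cells, was 134.0 CPM in M1, 144.8 in M6, 144.9 in M7, 113.6 in M10 and 110.8 in M15, and 121.5, 133.5, 129.7 and 111.8 CPM in A9, A11, A12 and A13. The groups overlapped almost completely (0.06 ± 0.11), and CNN2 was -0.02 without tumours M1 and M6 and -0.05 after the GC correction.

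CALD1, caldesmon, which blocks the actin-myosin interaction, was 58.5 to 68.9 CPM with MSC (median 59.7) and 44.7 to 60.8 CPM without. Only A9, at 60.8 CPM, lay within the range of the tumours with MSC. The change of CALD1 was 0.21 ± 0.11 and was not called.

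The tropomyosins, coiled-coil proteins that run along the actin filament, moved differently from one another. TPM1 was 315.0 CPM in M1, 250.4 in M6, 245.8 in M7, 243.9 in M10 and 272.9 in M15, against 233.5, 202.8, 209.7 and 253.1 CPM in A9, A11, A12 and A13. M1 was the highest, and A13 lay within the range of the tumours with MSC. TPM1 had a change of 0.24 ± 0.11 and TPM2 of -0.25 ± 0.19, and neither was called. TPM2 ran from 7.70 (M1) to 12.05 CPM (M15) with MSC and from 8.74 (A9) to 16.3 CPM (A11) without, so that M1, highest for TAGLN and TPM1, was lowest for TPM2.

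The smooth muscle actins did not rise with TAGLN. ACTA2, alpha smooth muscle actin and the common marker of myofibroblasts, was 2.03 CPM in M1, 2.22 in M6, 2.61 in M7, 1.63 in M10 and 1.91 in M15, and 1.85, 1.86, 1.65 and 2.18 CPM in A9, A11, A12 and A13. These values rest on 40 to 122 counts per library, and the groups overlapped (0.14 ± 0.29). In GENCODE 29, 38.3% of the ACTA2 exon bases are overlapped by ACTA2-AS1, and whether counting used strand is not given in the sources used here.

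ACTG2, gamma smooth muscle actin of the gut and bladder wall, was the member that fell. It was 1.58 CPM in M1, 1.97 in M6, 1.90 in M7, 2.04 in M10 and 1.26 in M15, against 3.83, 4.58, 2.90 and 2.73 CPM in A9, A11, A12 and A13. Every tumour with MSC lay below every tumour without. The mean went from 3.51 ± 0.861 CPM (SD, n = 4) without MSC to 1.75 ± 0.326 CPM (n = 5) with MSC, a change of -1.003 ± 0.27 on 44 to 252 counts per library. The size held without M1 and M6 (-1.02), but the call was lost there and when M1 (-0.97), M10 (-1.07), M15 (-0.91), A9 (-0.96) or A11 (-0.85) was left out. In the longest GENCODE 29 transcript of ACTG2, 2 of 2015 stretches of 50 bases occur in a transcript of another gene, and none of the 1300 of ACTA2 do. Reads placed with mismatches and reads of mouse actins were not tested.

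Of the motor and the regulator, only the light chain was called. MYL9, a regulatory light chain of smooth muscle and non-muscle myosin, was 77.2 CPM in M1, 72.4 in M6, 76.5 in M7, 63.3 in M10 and 62.4 in M15, and 49.1, 50.2, 45.2 and 59.9 CPM in A9, A11, A12 and A13. The groups did not overlap, with A13 the nearest to the tumours with MSC. The mean went from 51.1 ± 6.27 to 70.4 ± 7.09 CPM, a change of 0.46 ± 0.11. The call was lost without M1 and M6 together (0.39), without M1 (0.42), A9 (0.44) or A12 (0.40), and after the GC correction, which took the change of MYL9 to 0.26.

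SRF, the transcription factor that binds CArG boxes, was 145.8 CPM in M1, 134.9 in M6, 132.3 in M7, 158.1 in M10 and 146.7 in M15. Without MSC it was 131.2, 137.6, 126.0 and 132.5 CPM in A9, A11, A12 and A13. The groups overlapped (0.12 ± 0.10), and the sign turned after the GC correction (-0.14).

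**Figure D2:**
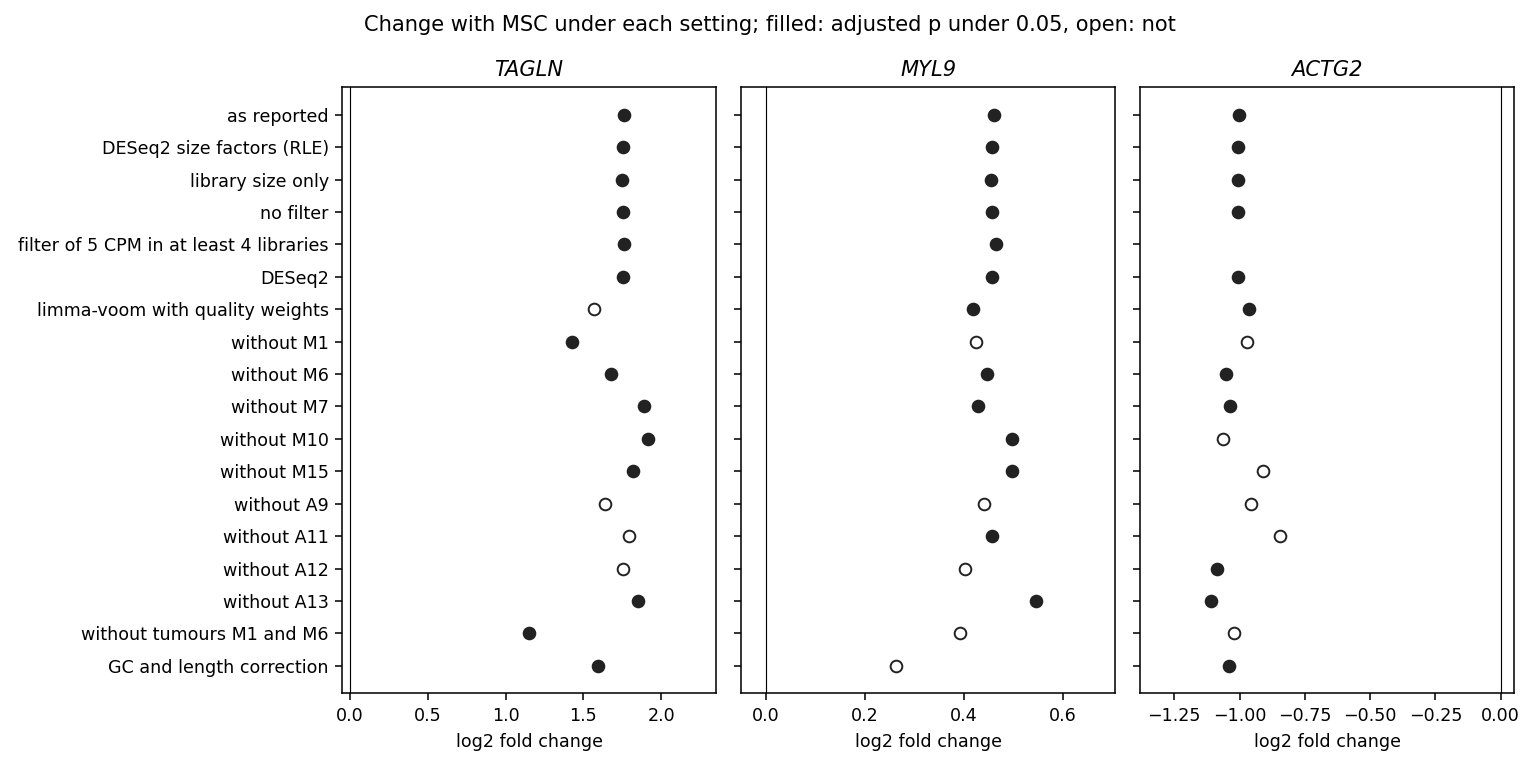
Log2 fold change (x axis, with MSC minus without) of TAGLN, MYL9 and ACTG2 under each setting (rows), filled where the adjusted p was under 0.05 and open where it was not. The change of TAGLN runs from 1.147 without tumours M1 and M6 to 1.92 without M10, and ACTG2 has no point under the filter of 5 CPM, which removes it.

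Per kilobase of exon the members spanned a wide range of levels. With MSC the order of mean level per kilobase was CNN2 (57.8 CPM per kb), SRF (34.2), TPM1 (31.8), MYL9 (24.9), TAGLN (13.1), CALD1 (10.96), TPM2 (6.16), ACTA2 (1.54), ACTG2 (0.655) and CNN1 (0.0565). Without MSC the level of TAGLN was 3.86 CPM per kb, below CALD1 (9.46) and TPM2 (7.34). With MSC, SRF and TPM1 overlapped in their ranges over tumours, as did TAGLN with MYL9, CALD1 and TPM2, whereas without MSC the range of TAGLN, 2.93 to 4.57 CPM per kb, lay below those of CALD1 and TPM2 and the ranges of ACTA2 and ACTG2 overlapped. These levels used the merged exons of GENCODE 29. With the length of the principal transcript instead, TPM1 ranked first, TAGLN ranked after CALD1 with MSC, and ACTG2 ranked above ACTA2 without MSC.

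TAGLN was highest in the tumours that also held the most skeletal muscle RNA. The skeletal muscle actin ACTA1 had 4.19 CPM in M1 and 9.54 in M6, and at most 0.486 CPM in the 7 other tumours, with 0 counts in M7, M15 and A12. It was not called (3.22 ± 1.88, edgeR adjusted p = 0.343) and was named after its values were seen. The summed level of 7 skeletal muscle markers was 4.64 CPM in M1 and 6.13 in M6. It was 0.625 to 1.63 CPM in the other tumours with MSC and 0.331 to 2.61 without. The 2.61 CPM was in A9, which had the lowest TAGLN of the 9 tumours (7.04 CPM). Of the 7 markers, 2 were tested (TNNT3 and TTN) and neither was called, and CKM and ACTN3 stayed under 0.1 CPM in every library. As given above, TAGLN without M1 and M6 was 2.21-fold higher with MSC. The part of skeletal muscle RNA in the TAGLN values was not tested.

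Other cell types were checked in the same way. Of 10 smooth muscle and pericyte markers outside the members, the summed level was 35.7 to 44.5 CPM with MSC and 20.4 to 29.6 CPM without. Of 4 tested markers 1 was called higher, beside 4.18% of all tested genes. It was MCAM (26.3 ± 2.005 against 16.5 ± 2.60 CPM), the most abundant of the list. MYOCD was at 0 counts in all 9 libraries. The defining markers MYH11, DES, LMOD1 and MYOCD, chosen after their values were seen, were also summed. Their sum was 1.00 CPM in M1, 0.825 in M6, 0.416 in M7, 0.242 in M10 and 1.51 in M15. Without MSC the sum was 0.0414 to 0.228 CPM, so these low levels did not overlap, with M10 just above A9 (0.228). They rest on 12 to 53 counts with MSC and 1 to 15 without. MYH11, DES and LMOD1 each overlapped on their own, and of all tested genes 5.13% were higher without overlap. M1 held 31 counts of DES, 7 of LMOD1 and 0 of MYH11, and M6 held 12, 4 and 7. Whether the DES counts came from smooth or skeletal muscle was not tested. The 14 fibroblast and MSC markers summed to 581.7 to 794.3 CPM with MSC and 501.3 to 647.0 CPM without. NT5E, the most abundant, made up 611.1 and 513.9 CPM of these on average. Of 9 tested, 1 was called higher, beside 4.18% of all tested genes. It was COL1A2, at 1.21 to 8.45 CPM with MSC and 0.528 to 0.699 CPM without. Its groups did not overlap, beside the 5.13% of all tested genes that were higher without overlap. ENG was lower on average with MSC (7.63 against 8.15 CPM) and was not called. M15, highest for fibroblast-defining and smooth muscle-defining markers, came after M1 and M6 for TAGLN and lowest for ACTG2. The part of MSC-derived or host cells in the TAGLN and MYL9 values was not tested.

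The lists of other cell types held also endothelial markers (130.001 to 161.5 CPM summed with MSC, 92.6 to 111.1 without, nearly all of it ESAM), leukocyte markers (139.6 to 209.4 against 96.1 to 139.5 CPM, nearly all of it CD68) and adipocyte markers (2.18 to 6.91 against 1.36 to 2.71 CPM). EMCN, CD3E and LEP stayed under 0.1 CPM in every library. Other genes of these lists had a higher maximum with MSC than without. The leukocyte gene PTPRC reached 3.58 CPM against at most 0.198, and the endothelial gene VWF 0.571 CPM against at most 0.0456. The adipocyte genes ADIPOQ, PLIN1 and FABP4 reached 1.17, 1.199 and 1.54 CPM against at most 0.207, 0.196 and 0.458. Their medians with MSC were only 0.254 (PTPRC), 0.0605 (VWF), 0.0264 (ADIPOQ), 0.202 (PLIN1) and 0.105 CPM (FABP4). These 5 genes did not pass the filter, and their part in the members' values was not tested. Others of these lists were lower on average with MSC, among them PECAM1 (4.43 against 8.50 CPM), KDR (1.02 against 1.33), LYZ (1.10 against 1.96) and CD14 (0.450 against 0.631). Of the tested endothelial markers 1 of 3 was called higher and 1 lower, of the leukocyte markers 1 of 5 higher, and of the adipocyte markers 0 of 1. These counts stand beside 4.18% higher and 3.60% lower of all tested genes.

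**Figure D3:**
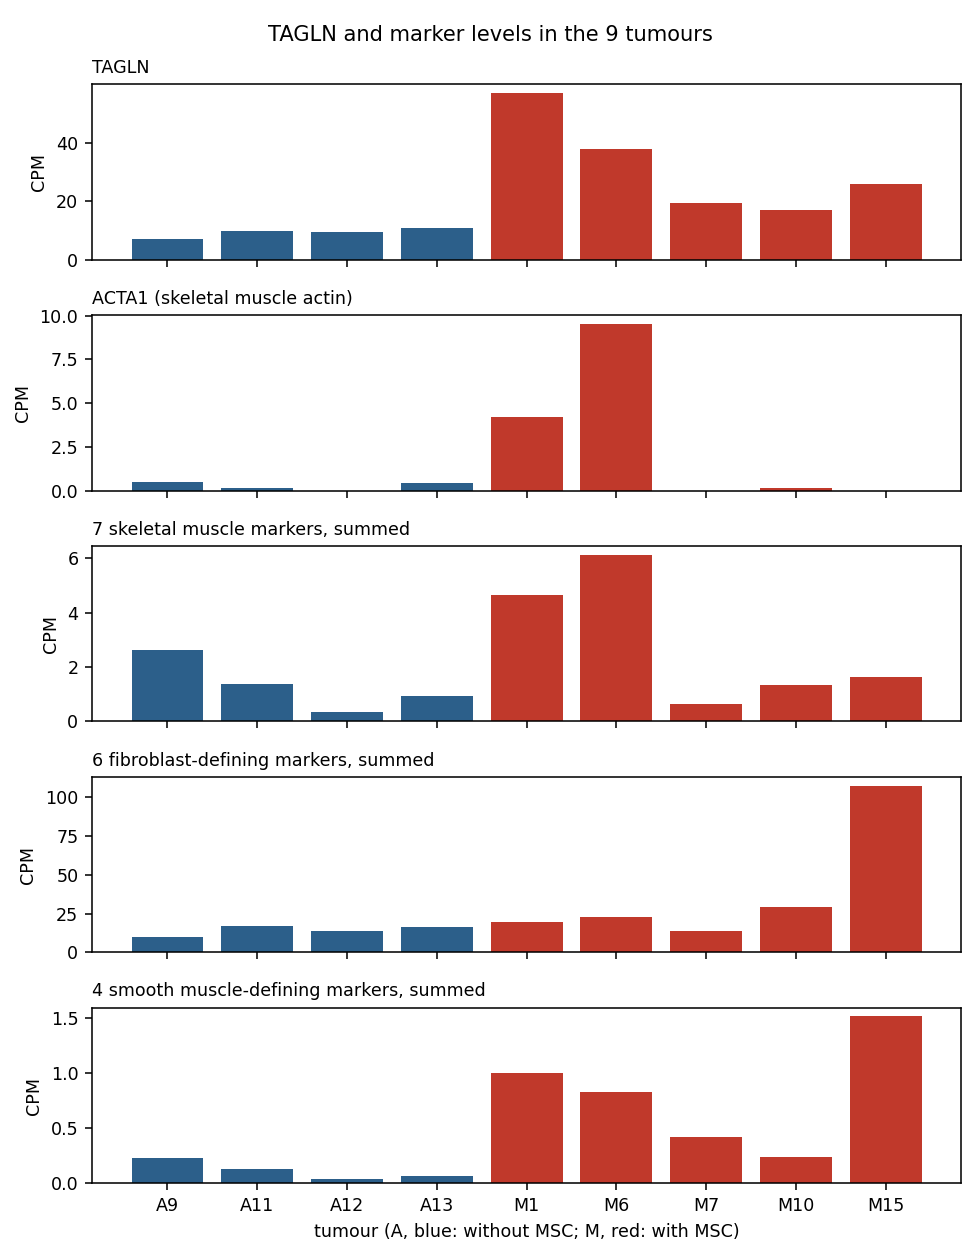
Levels in CPM (y axes from 0) of TAGLN, of ACTA1 and of summed markers of skeletal muscle, fibroblasts and smooth muscle in each tumour, without MSC in blue and with MSC in red. M1 and M6 are highest for TAGLN, ACTA1 and the skeletal muscle markers, and M15 for the fibroblast-defining markers at 107.6 CPM.

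After subtracting each group's mean from log2 CPM, Pearson's r with TAGLN over the 9 tumours was 0.60 for TPM1, 0.47 for MYL9, 0.29 for CNN2, 0.18 for ACTA2, 0.10 for CALD1, -0.05 for TPM2, -0.14 for SRF and -0.27 for ACTG2. Without M1 it was 0.49 for TPM2, 0.31 for MYL9, 0.31 for ACTA2, 0.26 for CNN2, 0.16 for TPM1, -0.22 for ACTG2, -0.35 for SRF and -0.46 for CALD1, so the order of the members rested on that tumour. The points share libraries and depth, and these values are descriptions with no test. The 5 genes most like TAGLN among 9794 genes of at least 5 CPM were the pseudouridine synthase PUS1 (r = 0.98), YDJC (0.95), RASSF1 (0.93), the actin-associated protein SYNPO (0.93) and the keratin KRT17 (0.91). PUS1 kept r = 0.98 without M1 and A9, the 2 tumours farthest from the median of TAGLN, while KRT17 fell to 0.79, SYNPO to 0.84, YDJC to 0.87 and RASSF1 to 0.89. KRT17 was 18.1 CPM in M1 and 3.49 to 7.21 CPM in the other tumours with MSC.

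The 6 lists of other genes around this programme held 75 genes, of which 64 were tested. With MSC 6 were called higher and 0 lower (edgeR), beside 4.18% and 3.60% of all tested genes. Without tumours M1 and M6, 2 of 63 tested were called higher, beside 74 of all 13556 tested genes. The median change over the 64 was 0.10, against 0.01 over all tested genes, and -0.01 after the GC correction. Among 13 paralogs of the members, 12 were tested and 0 were called by edgeR or limma-voom. At an unadjusted p under 0.05 there were 3, all lower (TAGLN3, ACTB and CNN3), and DESeq2 called 1 lower. TAGLN2, the transgelin of epithelial and blood cells, was 1219 ± 145.9 CPM with MSC and 1081 ± 124.1 without (0.17 ± 0.12, edgeR adjusted p = 0.411), and the neuronal TAGLN3 was 4.96 ± 0.824 and 6.94 ± 0.812 CPM (-0.49 ± 0.18, edgeR adjusted p = 0.105). TAGLN3 had the smallest p of the list, and its direction was opposite to that of TAGLN. The acidic calponin CNN3 was 258.3 ± 9.17 and 306.2 ± 34.7 CPM (-0.25 ± 0.10, edgeR adjusted p = 0.138). The actin ACTB was 6922 ± 804.1 and 9173 ± 2206 CPM (-0.41 ± 0.16, edgeR adjusted p = 0.119), with groups that overlapped.

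Further contractile genes were mostly too low to test. The list held 13 genes expressed in smooth muscle, several of them, such as DES, PLN and CASQ2, not restricted to it. Of these, 4 passed the filter and 0 were called by edgeR, DESeq2 or limma-voom. The median was -0.22, with 1 gene at an unadjusted p under 0.05. The myosin light chain kinase MYLK had the smallest p and was 10.5 ± 1.70 CPM with MSC and 13.2 ± 1.85 without (-0.33 ± 0.16, edgeR adjusted p = 0.195). Smoothelin (SMTN) was 38.6 ± 2.67 and 41.7 ± 9.48 CPM. MYOCD, PLN and CASQ2 had 0 counts in every library. With no filter on low counts, 1 of the genes of this list was called higher.

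Among the partners of SRF, 5 of 6 were tested and 0 were called by edgeR, DESeq2 or limma-voom (median -0.05), with 0 at an unadjusted p under 0.05. The ternary complex factor ELK3 had the smallest p, with 53.9 ± 11.8 CPM with MSC and 37.1 ± 14.8 without (0.53 ± 0.25, edgeR adjusted p = 0.211). MKL1, a myocardin-related factor, was 14.0 ± 1.63 and 13.4 ± 2.99 CPM.

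A list of 18 SRF target genes was mostly cytoskeletal but also held CTGF, CYR61, ANKRD1 and TUFT1. Of these 18, 2 were called higher and 0 lower, beside 4.18% of all tested genes called higher. There were 16 positive changes and a median of 0.16 (0.01 after the GC correction). TUFT1, which encodes tuftelin, was 30.1 to 42.0 CPM with MSC and 17.7 to 25.6 without. Its groups did not overlap, and it rose by 0.77 ± 0.13 (edgeR adjusted p = 0.00329), a call kept in all 17 alternatives. The focal adhesion protein zyxin (ZYX) rose from 91.4 ± 24.4 to 129.6 ± 14.3 CPM (0.50 ± 0.14, edgeR adjusted p = 0.0387), but A13 at 122.8 CPM lay within the range of the tumours with MSC. The call of ZYX was lost without M1, M7, M10, M15, A9, A11 or A12 (edgeR adjusted p 0.0689 to 0.149), without M1 and M6 (0.109), with library size only (0.0813), in limma-voom (0.0545), and after the GC correction (0.263), where its change was 0.25. Without A12 the change of ZYX was 0.36.

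Of 9 early response genes driven by SRF with ternary complex factors, 3 were called higher and 0 lower, beside 4.18% and 3.60% of all tested genes. There were 7 positive changes and a median of 0.57. IER2 (265.9 against 328.1 CPM, -0.30 ± 0.13) and EGR2 (0.863 against 1.41 CPM, -0.71 ± 0.51) were lower with MSC and were not called. JUNB rose from 89.1 ± 15.6 to 119.0 ± 3.96 CPM (0.42 ± 0.11, edgeR adjusted p = 0.0302), FOSB from 4.13 ± 0.703 to 7.95 ± 2.90 CPM (0.95 ± 0.25, edgeR adjusted p = 0.0264) and the nuclear receptor NR4A1 from 2.16 ± 1.31 to 10.4 ± 6.95 CPM (2.25 ± 0.57, edgeR adjusted p = 0.0443). JUNB and NR4A1 had groups that did not overlap, and FOSB in M1 (3.80 CPM) lay among the tumours without MSC. None of the 9 was called without M6, A9 or A12, 1 without M7, 1 without M1 and M6, and 1 (JUNB) in limma-voom. NR4A1 also lost its call with library size only (edgeR adjusted p = 0.0651) and with no filter (0.0929). After the GC correction JUNB was 0.20 and 1 gene of this list was called in each direction.

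**Figure D4:**
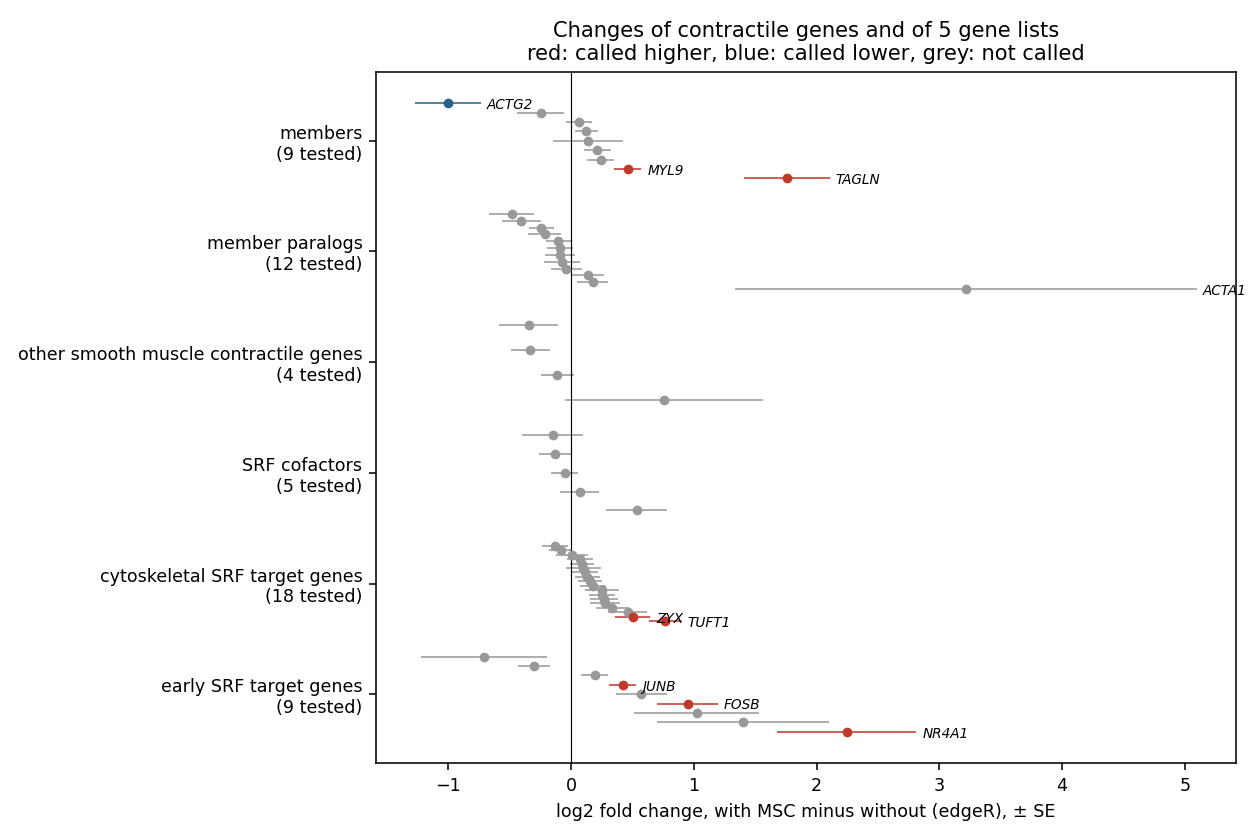
Log2 fold change (x axis, with MSC minus without, ± SE) of the tested members and of the tested genes in 5 lists, red where called higher, blue where called lower and grey where not called. TAGLN, MYL9 and ACTG2 are the called members, 5 genes of these lists are called, and ACTA1 has the widest SE.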

How the data were processed

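The deposited files hold raw whole-number read counts by gene symbol for each of the 9 tumours. CASAVA 1.8.1, TopHat 1.4.0, HTSeq and the build hg19 come from the submitters' processing notes. For the annotation, strand setting and mouse reads nothing was given in the sources used here, so overlapping genes, paralogs and conserved mouse RNA can shift counts. Lines for reads assigned to no gene held 10.2 to 12.1% of counts and were left out. None of the 16 pairs of libraries within a group agreed within sampling noise.

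Counts were fitted over all genes with edgeR 4.0.16 in R 4.3.3 (filterByExpr, TMM, glmQLFit with robust=TRUE, group only, Benjamini-Hochberg threshold 0.05), checked on simulated data. SE was the change divided by the square root of F. CPM used TMM-scaled library sizes, and log2 CPM a prior count of 2. The fit was repeated with DESeq2 1.42.0, with limma-voom (3.58.1) and quality weights, with other scalings (RLE, or library size without TMM), without the filter, with a filter of 5 CPM in 4 or more libraries, leaving out each tumour, and leaving out M1 and M6. The correction for GC content and length (splines, 4 degrees of freedom, 95.9% of tested genes matched to GENCODE 29) was added after seeing the data.

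The members and lists were chosen with earlier results of these data known. All members were named, and of each list up to 4 called genes, or the gene of smallest p. ACTA1, ACTB, TAGLN2, CNN3, SMTN, MKL1, PCSK7, IER2, EGR2, COL1A2 and ENG and the defining marker subsets were chosen after their values were seen. One of the gene lists enters the summed counts and is otherwise not reported here.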

Additional observations from a re-analysis of the deposited data

Results flagged for a closer look

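Of 88 groups of values checked, 5 held a tumour far from the rest by Dixon's criterion. Chance alone exceeds it in about 1 of 20 groups of normal values not chosen by their spread. That share does not hold for all of the 5. The fibroblast-defining markers were chosen after their values were seen, and KRT17 by its likeness to TAGLN. A single read among zeros, as for DES, passes the criterion by itself. The keratin KRT17 was 18.1 CPM in M1 against 7.21 CPM in the next tumour with MSC. The 6 fibroblast-defining markers summed to 107.6 CPM in M15 against 29.1 in the next. Adipocyte markers summed to 6.91 CPM in M15 against 3.26 in the next. PCSK7, which overlaps TAGLN, was 28.5 CPM in M15 against 22.1 in the next tumour with MSC. DES was 0.0152 CPM in A9, a single read, and 0 in the other tumours without MSC.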

How the results depend on the processing

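Among all genes, the 1047 calls became 1646 with DESeq2, 687 with limma-voom and 125 without tumours M1 and M6, and 245 to 1848 when 1 tumour was left out. The 3 called members became 1 (TAGLN) without M1 and M6 and 0 to 3 when 1 tumour was left out, with 0 without A9. The 6 called list genes (6 higher, 0 lower) became 11 with DESeq2 (9 higher, 2 lower), 3 with limma-voom, 2 without M1 and M6 and 2 to 10 when 1 tumour was left out, the 10 without A13 being 8 higher and 2 lower. CNN2 turned from 0.06 to -0.017 without M1 and M6 and to -0.049 after the GC correction, and SRF from 0.12 to -0.14 after the GC correction. The causes were not tested. Fewer tumours enter the fits that leave some out, and the calls among all genes went up as well as down there, to 1848 without A13. The other members kept their direction in every alternative run. CNN1, with at most 9 counts, and ACTA2 and ACTG2, with 40 to 252, are limited by depth. No paired analysis was possible because the groups share no replicate numbers.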
